A study of Mus musculus with 6 samples.

Results

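Lyve1, Mrc1, Cd163, Folr2, F13a1, Timd4, Stab1, Cbr2, Gas6 and Fcna are 10 genes by which resident tissue macrophages are recognised, and they were followed here through every cell class of the proximal pulmonary artery of young and old mice. They are 10 of the 53647 genes in the count tables, and all of them were detected. The arteries came from C57BL/6J wild-type mice and were excised together with some surrounding tissue, digested with collagenase and elastase, and sequenced as droplet single-cell 3′ libraries. Each library came from a separate mouse. The young group held a male and a female of 3 months (n = 2), and the old group held mice of 20, 24, 27 and 28 months (n = 4). Among these old mice the study lists only the 28-month mouse as female. A young library more was part of that study and is not analysed here. Of 15622 barcodes that reached 500 UMIs (unique molecular identifiers, each standing for 1 captured transcript) and 300 genes without passing 20% mitochondrial counts, 1474 were called macrophages because they held at least 2 UMIs of the complement genes C1qa, C1qb and C1qc together. The other cells were placed in 9 classes by marker genes that include none of the 10. The levels of the 10 genes still depend on which cells a class takes in. Levels are CPM, the UMIs of a gene scaled to a common total, from the UMIs summed over the cells of a class in a library, and ± values are SDs over libraries.

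Resident macrophages of vessel walls take up macromolecules, dying cells and hemoglobin, and many are long-lived cells seeded before birth. LYVE1 binds hyaluronan and is shared by perivascular macrophages and lymphatic endothelium. MRC1 is the mannose receptor, CD163 takes up hemoglobin bound to haptoglobin, STAB1 is a scavenger receptor also made by sinusoidal and lymphatic endothelium, and FOLR2 is a folate receptor. TIMD4 binds phosphatidylserine on dying cells, GAS6 is a ligand that bridges phosphatidylserine to the receptor tyrosine kinases AXL, MERTK and TYRO3, FCNA is a secreted ficolin of the lectin complement pathway, F13a1 encodes the A chain of coagulation factor XIII, a transglutaminase that crosslinks fibrin and matrix proteins, and CBR2 is a carbonyl reductase best known from the airway epithelium.

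The 250 bases before the annotated start of each transcript were read from RefSeq on GRCm38.p6, where 9 of the 10 genes had a promoter (11 promoters in all, since F13a1 and Folr2 have 2 each). Shown are those of Mrc1 and Fcna, both of which had nearly all of their UMIs in macrophages, and those of Stab1 and Cbr2, which did not. Capitals mark the letters GAGGAA, a core bound by the myeloid factor PU.1, and TGCTGA, a core bound by MAF factors, each searched on both strands (so TTCCTC and TCAGCA are the same motifs read on the other strand), with no overlaps between them. The sequences run 5′ to 3′ on the strand of the gene and lie upstream of its first exon.
Mrc1, chr2:14229164-14229413, plus strand: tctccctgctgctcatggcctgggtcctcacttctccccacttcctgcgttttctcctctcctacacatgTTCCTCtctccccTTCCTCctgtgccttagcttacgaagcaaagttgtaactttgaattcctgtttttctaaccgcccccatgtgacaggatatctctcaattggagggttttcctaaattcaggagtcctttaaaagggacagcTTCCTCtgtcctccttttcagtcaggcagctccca
Fcna, chr2:25627975-25628224, minus strand: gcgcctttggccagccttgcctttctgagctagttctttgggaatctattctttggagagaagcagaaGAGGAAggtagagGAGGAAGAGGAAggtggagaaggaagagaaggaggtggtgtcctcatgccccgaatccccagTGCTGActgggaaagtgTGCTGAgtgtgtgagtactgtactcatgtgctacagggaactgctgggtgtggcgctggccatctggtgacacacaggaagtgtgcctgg
Stab1, chr14:31168642-31168891, minus strand: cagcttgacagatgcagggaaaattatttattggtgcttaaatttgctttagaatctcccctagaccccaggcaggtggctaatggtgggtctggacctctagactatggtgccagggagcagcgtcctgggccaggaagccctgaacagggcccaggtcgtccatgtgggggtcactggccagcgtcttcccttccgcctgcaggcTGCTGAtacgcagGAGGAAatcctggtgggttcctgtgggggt
Cbr2, chr11:120732022-120732271, minus strand: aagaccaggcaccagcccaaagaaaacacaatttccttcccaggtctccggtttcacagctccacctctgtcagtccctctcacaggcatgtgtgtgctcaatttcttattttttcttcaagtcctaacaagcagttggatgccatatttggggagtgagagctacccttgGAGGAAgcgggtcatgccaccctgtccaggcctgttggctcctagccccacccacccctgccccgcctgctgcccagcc
GAGGAA was present in 5 of the 11 promoters and in 23.3% of all 32851 mouse promoters of this length. TGCTGA was present in 5 of 11 and in 16.1% of all. TATAAA, the TATA box, was in none of the 11 and in 12.4% of all. The Mrc1 promoter held 3 GAGGAA and no TGCTGA, and that of Fcna held 3 and 2. Stab1 held 1 of each and Cbr2 held 1 GAGGAA. Among the promoters not shown, those of Cd163 and Gas6 held neither motif, although Cd163 also had nearly all of its UMIs in macrophages. Both Folr2 promoters held 1 TGCTGA and no GAGGAA, although Folr2 too lay nearly all in macrophages. That of Timd4 held 2 TGCTGA, and 1 of the F13a1 promoters held 1 GAGGAA. A match is a run of letters and was not tested as a binding site.

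The libraries differed widely in depth, from 6355125 to 50436562 UMIs in all and from 47 macrophages in the young female to 653 at 28 months. The median macrophage held 903 UMIs in the young male, 811 in the young female, 2852 at 20 months, 1240 at 24 months, 6467 at 27 months and 5807 at 28 months. The young male, young female and 24-month libraries shared 131 to 215 cell barcodes per pair, against at most 4 for any other pair, and 9 of the barcodes shared by the young female and 24-month libraries were macrophages in both. Both young libraries therefore belong to the shallow set that shares barcodes, so that age and library set could be separated only through the 24-month library. The study lists the 20-month mouse as male, whereas its library held 2411 UMIs of Xist, expressed from the inactive X chromosome. Of the Y-linked genes checked, it held 209 UMIs of Ddx3y, 15 of Uty, 2 of Eif2s3y and 2 of Kdm5d. Sex was not used in any test. Between 3.33% and 32.9% of the macrophages of a library held UMIs of at least 3 markers of another class, the highest shares being those at 27 months (32.9%) and 28 months (29.6%).

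In macrophages at least 1 UMI of each of the 10 genes was found in all 6 libraries. In the young female, Gas6 rested on 1 UMI and Folr2 was found in 1 of 47 macrophages. Of the 10 genes, 4 had nearly all of their UMIs in macrophages. Of all UMIs of Fcna in cells, 98.3% lay in macrophages, and the shares were 97.5% for Cd163, 96.1% for Folr2 and 95.6% for Mrc1. F13a1 (87.7%) and Timd4 (86.6%) followed, then Lyve1 (69.7%) and Stab1 (50.5%). Only 22.3% of Gas6 UMIs and 9.46% of Cbr2 UMIs were in macrophages. These shares depend on how many cells of each class were captured, so the comparisons that follow use the level per class instead.

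**Figure D1:**
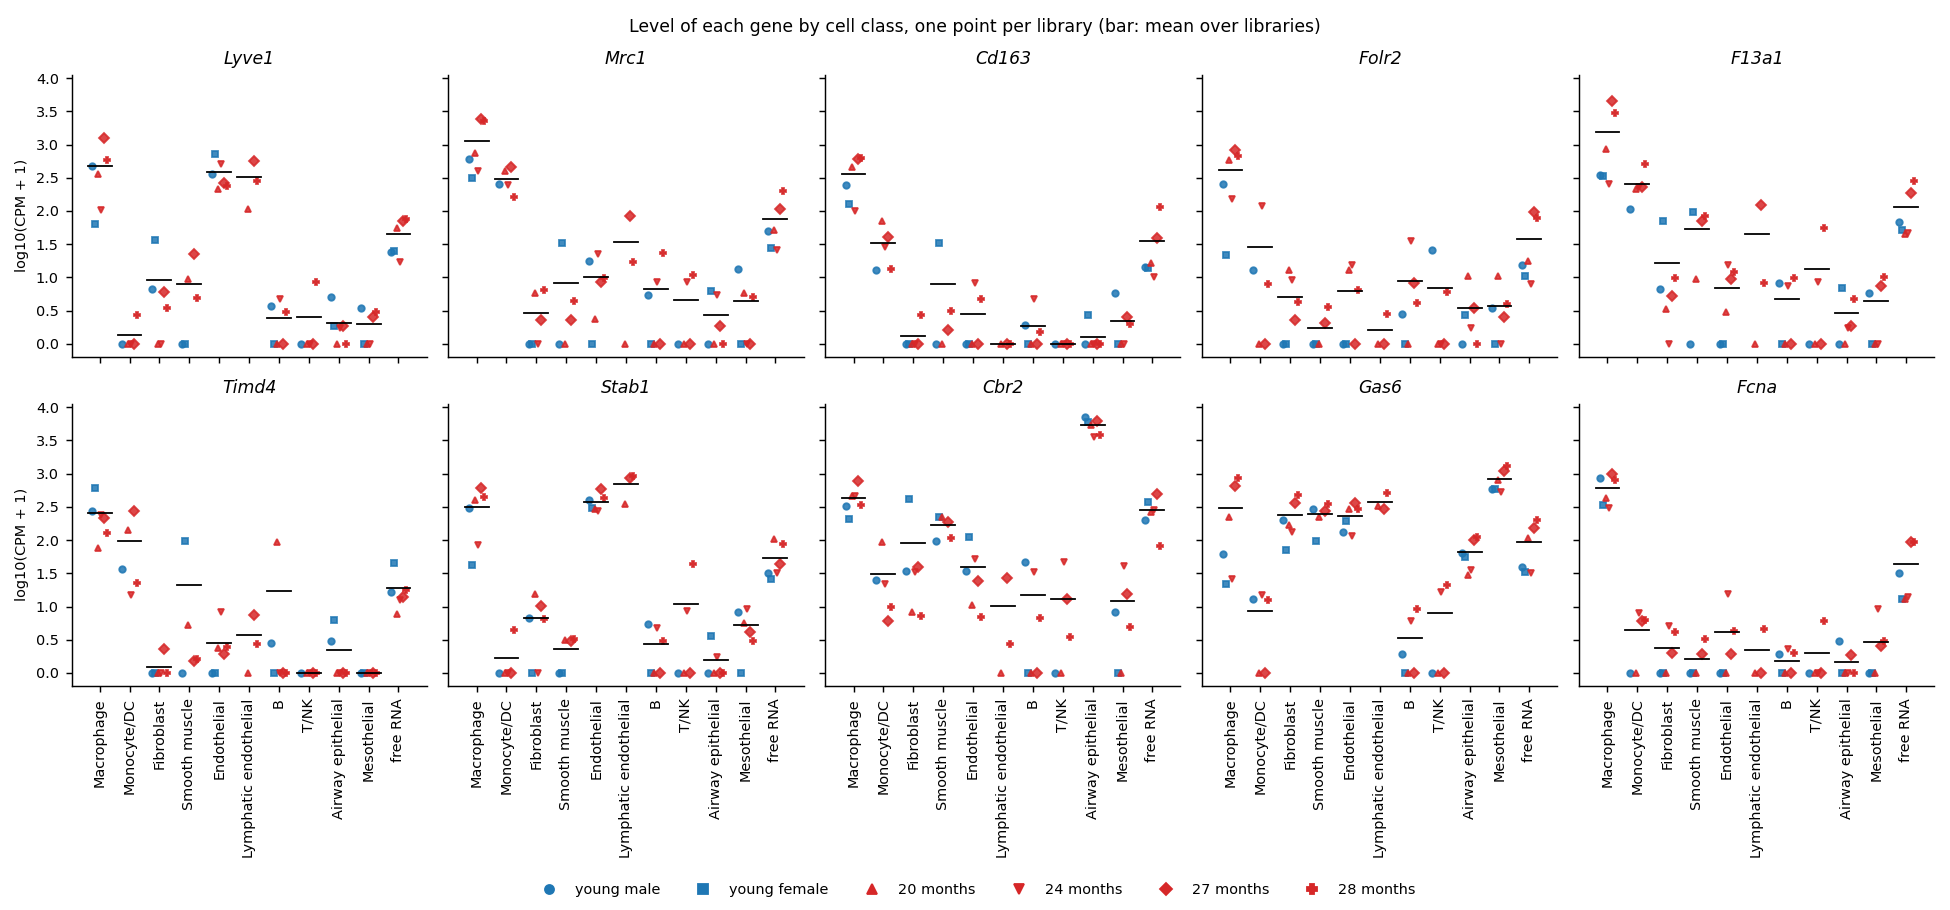
Level of each gene as log10(CPM + 1) in the 10 cell classes and in RNA outside cells (free RNA), with 1 point per library with at least 10 cells and a bar at the mean over libraries. Mrc1, Cd163, Folr2, F13a1 and Fcna stand highest in macrophages, whereas Stab1 is also high in endothelial classes, Cbr2 in airway epithelium and Gas6 in mesothelium.

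The scavenger and endocytic receptors fell into a pair found in macrophages and, at a lower level, in monocytes, and a pair shared with endothelium. Mrc1 in macrophages was 611 CPM in the young male, 311 in the young female, 735 at 20 months, 403 at 24 months, 2449.8 at 27 months and 2238 at 28 months. Every one of these exceeded the Mrc1 level in any other class of any library except monocytes and dendritic cells (DC), where it ran from 161 to 465 CPM over 5 libraries. A Mrc1 UMI was found in 14.2% (24 and 28 months) to 54.2% (27 months) of monocytes and DC. Cd163 in macrophages was 247, 124, 452, 98.8, 613 and 615 CPM in the same order. In monocytes and DC it ran from 12.0 to 70.0 CPM, and this class held 30 Cd163 UMIs over all libraries. Both genes were thus lowest in macrophages of the young female and 24-month libraries.

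Lyve1 and Stab1 reached levels in endothelial cells that overlapped those in macrophages. Lyve1 in macrophages was 469.6 CPM in the young male, 62.2 in the young female, 361 at 20 months, 103 at 24 months, 1232 at 27 months and 594 at 28 months. In endothelial cells it was 361, 717, 216, 512, 264 and 236 CPM in that order, so the class with the higher level differed from library to library. The endothelial level was higher in the young female and at 24 months, the libraries in which the macrophage level was lowest. In lymphatic endothelial cells, captured in sufficient number in 3 libraries, Lyve1 was 106 CPM at 20 months, 569 at 27 months and 284 at 28 months. Prox1 or Mmrn1, lymphatic markers, were detected in 37 of 38, 25 of 26 and 72 of 74 of these cells.

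Stab1 had its highest mean level in lymphatic endothelial cells, at 349, 867 and 909.8 CPM at 20, 27 and 28 months. At 20 months Stab1 was higher in macrophages (394 CPM). In endothelial cells it ran from 274 to 578 CPM and in macrophages it was 304 CPM in the young male, 41.5 in the young female, 394 at 20 months, 82.3 at 24 months, 601 at 27 months and 446 at 28 months. The macrophage value of the young female rested on few UMIs. Among endothelial cells without a single UMI of any lymphatic marker, Lyve1 was still 235 to 755 CPM and Stab1 274 to 606 CPM, close to the levels with those cells included. Mrc1 in endothelial cells was at most 21.6 CPM, and at the ratio of Lyve1 to Mrc1 in macrophages of the same library this would bring at most 12.6 CPM of Lyve1. The source of Lyve1 and Stab1 in endothelial cells was not tested.

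Folr2, the folate receptor, was, like Cd163, low outside macrophages. It was 251 CPM in the young male, 20.7 in the young female, 591 at 20 months, 152 at 24 months, 813 at 27 months and 664 at 28 months. In the young female only 1 of 47 macrophages held a UMI of Folr2. Outside macrophages its highest level was 119.7 CPM, in monocytes and DC at 24 months, and the next was 34.3 CPM, in B cells of the same library.

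The secreted proteins Fcna and F13a1 differed in how tightly they kept to macrophages. Fcna was 854 CPM in the young male, 332 in the young female, 423 at 20 months, 301 at 24 months, 985 at 27 months and 808 at 28 months, and no other class in any library exceeded 14.4 CPM. F13a1 was 348, 332, 862, 251, 4534 and 2973 CPM in macrophages, a range over libraries of more than an order of magnitude with 27 and 28 months at the top. F13a1 was also found in monocytes and DC, at 108 CPM in the young male, 209.8 at 20 months, 225 at 24 months, 225 at 27 months and 505 at 28 months. In smooth muscle cells F13a1 was 70.4 CPM at 27 months (1574 UMIs in 543 of 2384 cells) and 84.3 CPM at 28 months (530 UMIs in 225 of 959 cells). Mrc1 in the same smooth muscle cells was 1.25 and 3.34 CPM, and the F13a1 that would accompany it at the ratio seen in macrophages of these libraries was 2.32 and 4.44 CPM. In the young female this ratio would bring 34.2 CPM of the 96.1 CPM measured in smooth muscle cells, from 3 UMIs. At 20 months F13a1 there was 8.55 CPM with no Mrc1 UMI, and the young male had neither. The source of F13a1 in smooth muscle cells was not tested.

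The pair that binds dying cells behaved unlike each other. Timd4, the receptor, was 271 CPM in macrophages of the young male, 601 in the young female, 73.9 at 20 months, 239 at 24 months, 213 at 27 months and 128 at 28 months, from 18 to 537 UMIs per library. In monocytes and DC it was 14.1 to 270.2 CPM, but the highest of these values, at 27 months, came from 54 UMIs in 3 of 24 cells, 31 of them in a single cell. Gas6, the ligand, was highest in mesothelial cells, at 590.5, 592, 803, 533, 1105 and 1319.5 CPM in the order young male, young female, 20, 24, 27 and 28 months. In macrophages it was 60.7, 20.7, 222, 24.7, 650.3 and 851 CPM in that order. The values of the young male, the young female and 24 months rested on 15, 1 and 6 UMIs. Fibroblasts (70.0 to 484 CPM), smooth muscle cells (96.1 to 347 CPM) and endothelial cells (115 to 366 CPM) lay in the same range as macrophages, and monocytes and DC (0 to 14.1 CPM), B cells (0 to 8.15 CPM) and T and NK cells (0 to 20.0 CPM) lay far below.

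Cbr2, the carbonyl reductase, was foremost an airway gene in this tissue. In airway epithelial cells it was 7250.4, 5902, 5379, 3524, 6171 and 3876 CPM, and in macrophages 319.8 CPM in the young male, 207 in the young female, 459.7 at 20 months, 461 at 24 months, 779.9 at 27 months and 333 at 28 months. Smooth muscle cells held 97.1 to 224 CPM in 5 libraries. Airway epithelial markers summed to 198 CPM in macrophages of the young male, 11627 in the young female, 115 at 20 months, 21290 at 24 months, 3083 at 27 months and 1144 at 28 months. At the ratio of Cbr2 to these markers within airway cells, the airway RNA in macrophages would bring 293 CPM of Cbr2 in the young female, above the 207 CPM measured, and 246 CPM of the 461 CPM at 24 months. In the other 4 libraries it would bring 2.70 to 89.9 CPM. These values assume that the ratio is the same in RNA carried over, and the part of airway RNA in the macrophage level was not tested.

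RNA outside cells, summed over barcodes with 1 to 50 UMIs, held all 10 genes. The macrophage level over this background was highest for Fcna, with a median ratio over the 6 libraries of 25.2, followed by Timd4 at 14.8, Cd163 at 13.6, Mrc1 at 13.4, with Folr2 next. It was 8.58 for F13a1, 7.29 for Lyve1 and 4.47 for Stab1. For Gas6 (median 1.83, lowest 0.655) and Cbr2 (median 1.62, lowest 0.563) the macrophage level was below the background in at least 1 library, so that these genes were not distinguishable from free RNA there.

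Macrophages were then compared with each other class in a single edgeR quasi-likelihood fit on summed counts of 54 library and class profiles, with library as a block and 14398 genes tested. A gene was called at a Benjamini-Hochberg adjusted p under 0.05 (adjusted p in what follows). A gene could pass the expression filter through macrophages alone, so the counts of the 10 genes are descriptions to be read against the share of all genes called. Against monocytes and DC, 9 of the 10 were called higher, where 13.3% of all genes were higher and 3.36% lower. The median log2 fold change of the 10 genes was 4.75 against 0.38 over all genes. The smallest differences belonged to Mrc1, with a log2 fold change of 1.99 (SE 0.49, adjusted p = 0.0028), F13a1 with 2.34 (SE 0.56, adjusted p = 0.0023) and Timd4 with 1.31 (SE 0.52), which did not pass the test (adjusted p = 0.080). Without the 28-month library, or with DESeq2, Mrc1 no longer passed, and Timd4 did pass without the 27-month library (2.17), without the 20-month library (1.51) or without the young female (1.42). Fcna, Lyve1 and Stab1 were near 0 in monocytes and DC, and Cd163 (4.14, SE 0.53), Folr2 (4.91, SE 0.67), Cbr2 (4.59, SE 0.71) and Gas6 (5.29, SE 0.64) were higher in macrophages by large margins.

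The stromal classes separated the genes further. Against fibroblasts 9 of the 10 genes were called higher (18.5% of all genes), and against smooth muscle cells 8 (22.0% higher and 16.6% lower over all genes). Gas6 was called in neither, with log2 fold changes of 0.20 (SE 0.38) and 0.24 (SE 0.41), and Cbr2 against smooth muscle cells was 1.25 (SE 0.53, adjusted p = 0.057). Cbr2 passed there without composition scaling (adjusted p = 0.047), without the young female (adjusted p = 0.029) and without the 24-month library (adjusted p = 0.048). F13a1 was called higher in macrophages than in smooth muscle cells by 4.99 (SE 0.66, adjusted p = 2.5e-08). Against endothelial cells 7 were called higher (17.5%), and the exceptions were Lyve1 at 0.36 (SE 0.38, adjusted p = 0.53), Stab1 at −0.21 (SE 0.32, adjusted p = 0.70) and Gas6 at 0.20 (SE 0.39, adjusted p = 0.78). The same genes were the exceptions against lymphatic endothelial cells, where 7 were called (12.9% of all genes were higher and 8.52% lower), with Lyve1 at 1.06 (SE 0.44, adjusted p = 0.082), Stab1 at −0.55 (SE 0.39) and Gas6 at 0.20 (SE 0.45). Without composition scaling, Gas6 against lymphatic endothelial cells was −0.08. With a filter of 1000 UMIs and 500 genes Lyve1 was called higher than in endothelial cells (1.19, adjusted p = 0.012) and than in lymphatic endothelial cells (1.24, adjusted p = 0.019). The second was also called with at least 5 C1q UMIs (1.31, adjusted p = 0.031) and without the young female (1.10, adjusted p = 0.037). A missed threshold does not show that these levels were equal.

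Epithelial and mesothelial cells exceeded macrophages in 1 gene each. Against airway epithelial cells 9 genes were called higher (19.4% of all genes) and Cbr2 was called lower, by −3.84 on the log2 scale (SE 0.53, adjusted p = 5.2e-08, 20.4% of all genes lower). Against mesothelial cells 9 were called higher (18.3%) and Gas6 was called lower, by −1.48 (SE 0.38, adjusted p = 0.0012, 14.3% of all genes lower). Gas6 was called higher in macrophages than in airway cells, by 1.44 (SE 0.40, adjusted p = 0.0022), and without the 28-month library this call was lost at 1.00 (adjusted p = 0.072). Against B cells (22.6% of all genes higher and 11.9% lower) and against T and NK cells (19.4% higher and 6.56% lower) all 10 were called higher. Over the 9 contrasts Mrc1, Cd163, Folr2, F13a1 and Fcna were called higher in 9, Timd4 in 8, Lyve1, Stab1 and Cbr2 in 7 each, and Gas6 in 4. The split of calls into higher and lower depended on the scaling of libraries in 4 contrasts. Without composition scaling the higher share of the calls went from 74.7% to 56.7% against T and NK cells, from 48.7% to 64.4% against airway cells, from 56.2% to 45.1% against mesothelial cells and from 60.3% to 46.0% against lymphatic endothelial cells. The median of all genes moved by −0.33, 0.37, −0.23 and −0.28 on the log2 scale in these contrasts and by −0.11 against fibroblasts. The direction of each call of the 10 genes was the same under both scalings.

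Genes known to accompany the 10 in resident macrophages separated them from monocytes and DC as well. Of 15 companion genes, 15 were called higher (median 4.21 on the log2 scale, 0.38 over all genes), against 13.3% of all genes higher and 3.36% lower, among them the lectins Cd209f (8.84, SE 0.58) and Cd209g (7.40, SE 0.58) and the sodium pump regulator Fxyd2 (6.88, SE 0.67). Of 14 other scavenger receptors and lectins tested, 8 were higher, including Cd5l (7.22, SE 0.66) and Colec12 (5.21, SE 0.86), and 2 were lower, Scarb1 (−1.43, SE 0.45), the HDL receptor, and Clec7a (−1.09, SE 0.39), a receptor for fungal glucans. Of 10 genes of GAS6 reception and dying cell uptake, 4 were higher: Mertk (4.96, SE 0.63), Mfge8 (2.67, SE 0.57), Axl (2.30, SE 0.53) and Pros1 (1.97, SE 0.33). Of 10 genes listed under heme and iron handling, 7 were higher, led by the biliverdin reductase Blvrb (2.95, SE 0.37), Hpgd (2.27, SE 0.49) and the heme oxygenase Hmox1 (1.91, SE 0.39). Hpgd is in this list but encodes a prostaglandin dehydrogenase and is not a gene of heme or iron handling. Of 8 MHC class II genes, 3 were lower in macrophages, foremost H2-DMb2 (−2.73, SE 0.45). Of 9 monocyte genes, 6 were lower, among them Ly6c2 (−4.88, SE 0.60) and Treml4 (−4.41, SE 0.66). Ccr2 and Ly6c2 of this list are also markers of the monocyte and DC class and are not independent of it. Of 10 immediate early and stress genes, which respond to tissue digestion, 2 were higher, Egr1 (1.60, SE 0.47) and Jun (1.38, SE 0.38), a share near the 13.3% of all genes called higher in this contrast.

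Macrophages differed in how many of the 10 genes they showed. After every macrophage was thinned to 500 UMIs, at least 2 of the 10 genes were found in 39.6% of the macrophages of the young male, 21.3% of the young female, 38.9% at 20 months, 20.0% at 24 months, 77.5% at 27 months and 59.0% at 28 months. None was found in 36.2%, 46.8%, 43.3%, 57.5%, 11.1% and 26.2% of them. The shares that sampling alone would give at this depth were not computed. To ask whether the genes occurred in the same cells, macrophages with at least 1 Lyve1 UMI were compared with those with none, leaving Lyve1 itself out of the fit. The young female, with 3 Lyve1-positive macrophages, could not enter, and the other 5 libraries held 15 to 337 positive and 62 to 316 negative cells.

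In cells at their full depth, Lyve1-positive macrophages carried more of the other 9 genes in every one of the 5 libraries. The median UMI count of a Lyve1-positive cell was 984 in the young male, 3410.5 at 20 months, 1454 at 24 months, 6315 at 27 months and 5917 at 28 months, above that of Lyve1-negative cells except at 27 months, and the same comparison at equal depth is given after the test. Folr2 was 472 CPM in Lyve1-positive and 167 CPM in Lyve1-negative macrophages of the young male, 1259.7 and 132 at 20 months, 631 and 96.5 at 24 months, 1106 and 59.1 at 27 months, and 1131 and 156 at 28 months. Cd163 was 487 and 156 CPM in the young male, 816 and 201 at 20 months, 434 and 59.8 at 24 months, 822 and 75.2 at 27 months, and 1112 and 75.1 at 28 months. The lowest positive value lay above the highest negative value for both genes. Mrc1 was 900.3 and 502 CPM in the young male, 1139 and 457 at 20 months, 947 and 340.2 at 24 months, 3188 and 546 at 27 months, and 3485 and 885 at 28 months. For Mrc1 too the sides did not overlap, although the ratio within a library was smaller.

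At full depth, the phosphatidylserine receptor and the ficolin were far lower in Lyve1-negative than in Lyve1-positive macrophages in the 3 libraries with the deepest macrophages. Timd4 was 171 CPM in Lyve1-positive and 6.93 CPM (1 UMI in 62 cells) in Lyve1-negative macrophages at 20 months, 294 and 3.58 CPM (2 UMIs in 70 cells) at 27 months, and 241 and 5.47 CPM (11 UMIs in 316 cells) at 28 months. In the young male it was 502 and 184 CPM and at 24 months 394 and 221 CPM. Fcna was 927 and 76.2 CPM at 20 months, 1352 and 39.4 at 27 months and 1499 and 57.2 at 28 months, against 1506 and 608 in the young male and 1144 and 202 at 24 months. A Lyve1-negative macrophage of the shallow libraries held a median of 871 UMIs in the young male and 1226 at 24 months, against 2262.5 to 7660.5 in the other 3 libraries. The part of this depth in the difference between libraries was not tested.

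**Figure D2:**
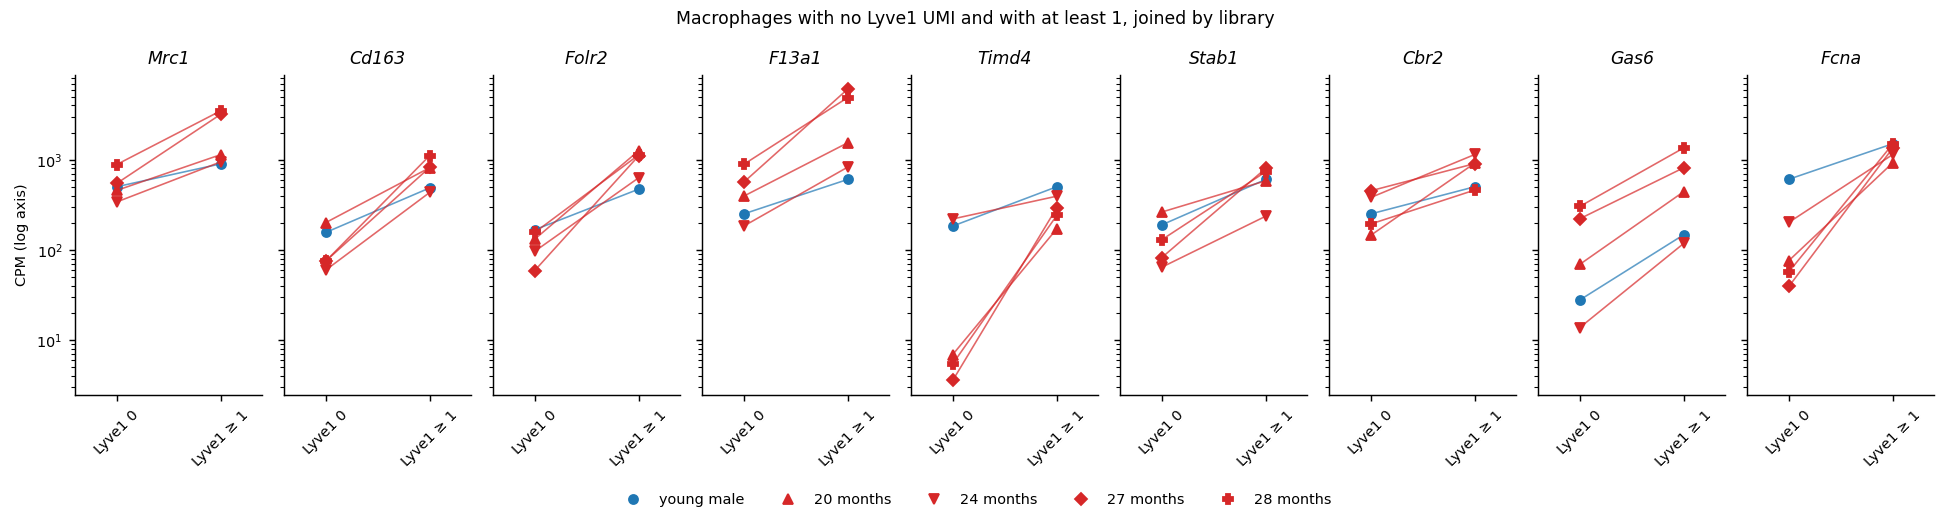
Level of each gene (CPM, log axis) in macrophages with no Lyve1 UMI and with at least 1, with a line joining the sides of each of 5 libraries. All lines rise from left to right, and those of Timd4 and Fcna rise most steeply at 20, 27 and 28 months.

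In the edgeR fit of the 10 split profiles, with library as a block, 7 of the 9 genes were called higher in Lyve1-positive macrophages, where 4.43% of 9735 genes were called higher and 11.0% lower. The median log2 fold change of the 9 was 2.14, against −0.09 over all genes. Folr2 (2.78, SE 0.30, adjusted p = 4.4e-11) and Cd163 (2.69, SE 0.31, adjusted p = 9.6e-10) led, followed by Gas6 (2.14, SE 0.30), F13a1 (2.13, SE 0.27), Stab1 (2.02, SE 0.29), Mrc1 (1.48, SE 0.26) and Cbr2 (1.26, SE 0.26). Fcna (3.27, SE 0.83, adjusted p = 0.074) and Timd4 (3.09, SE 1.14, adjusted p = 0.20) had the largest differences and the largest errors and were not called, though higher in 5 of 5 libraries. Both were called by DESeq2, Fcna also with at least 5 C1q UMIs, without likely doublets and without the young male, the 27-month or the 28-month library, and Timd4 without the 28-month library. Splitting by Folr2 instead of Lyve1 gave 7 called of 9 other genes, with 3.87% of all genes higher and 10.4% lower. With each cell thinned to 500 UMIs before the split, 6 of the 9 were called, with 0.883% of 2264 genes higher, and the differences were much smaller. Mrc1 and Cbr2 lost their calls at 0.63 and 0.20 on the log2 scale, Folr2 went from 2.78 to 0.82, Cd163 from 2.69 to 0.88, Gas6 from 2.14 to 0.87, F13a1 from 2.13 to 1.03 and Stab1 from 2.02 to 0.96. Fcna was called at 1.21, and Timd4 at 1.03 was not. Thinning before the split also moves cells that hold Lyve1 to the negative side, which by itself makes differences smaller. In the share comparison at 500 UMIs, Lyve1-positive cells numbered 126 at 27 months and 128 at 28 months, against 219 and 337 at full depth. The parts of depth and of this shift in the smaller differences were not tested. In shares of cells at 500 UMIs, over the 4 libraries with at least 10 Lyve1-positive cells at that depth, Mrc1, Cd163, Folr2, Stab1 and Gas6 were more frequent on the positive side in 4 of 4, and F13a1, Timd4, Cbr2 and Fcna in 3 of 4. The exceptions were F13a1 (30.0% on both sides), Fcna (10.0% on both) and Timd4 (0% of 10 positive and 2.5% of 80 negative cells) at 20 months, and Cbr2 in the young male (11.4% and 14.5%). Leaving out likely doublets gave 8 called genes.

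The cells with Lyve1 also differed from those without it in genes outside the 10. The counts that follow are to be read against 4.43% of 9735 genes called higher and 11.0% called lower in this split. Of 15 companion genes, 10 were called higher (median 1.74 on the log2 scale, −0.09 over all genes), led by Cd209d (4.10, SE 0.41), Cd209g (3.37, SE 0.36) and Fxyd2 (2.70, SE 0.34). All 8 MHC class II genes were called lower, with a median of −1.38, among them H2-DMb2 (−3.05, SE 0.57), H2-Eb1 (−1.65, SE 0.25) and H2-Ab1 (−1.51, SE 0.25). Their summed level was 3395 CPM in positive and 16398 in negative macrophages of the young male, 21364 and 39307 at 20 months, 5167 and 8192 at 24 months, 9392 and 18324 at 27 months, and 8587 and 18608 at 28 months. The sum was lower on the Lyve1-positive side in all 5 libraries. Of 5 monocyte genes tested, 4 were called lower: the integrin Itgal (−3.78, SE 0.46), fibronectin Fn1 (−2.80, SE 0.30), the chemokine receptor Ccr2 (−2.34, SE 0.34) and versican Vcan (−2.27, SE 0.36). Against fibroblasts, 9 monocyte genes were tested, with 4 higher in macrophages and 3 lower (18.5% and 13.2% of all genes). The part of RNA from other classes in the differences of this split was not tested.

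Of 9 genes of GAS6 reception and dying cell uptake, 2 were higher in Lyve1-positive macrophages and 4 were lower. Over all genes in this split 4.43% were higher and 11.0% lower. The calls of this group thus went in both directions. Pros1 (1.27, SE 0.30), which like GAS6 is a ligand of these receptors, and the receptor Mertk (0.80, SE 0.30) were higher. The receptor Axl (−1.80, SE 0.34), the bridging protein Mfge8 (−1.97, SE 0.35) and the integrin subunits Itgav (−2.08, SE 0.33) and Itgb5 (−1.68, SE 0.33), which bind it, were lower. Against fibroblasts, 3 of the 10 genes of this list were higher in macrophages and 3 lower (18.5% and 13.2% of all genes). Against smooth muscle cells 3 were higher and 4 lower (22.0% and 16.6%). The part of RNA from such cells in the differences of this split was not tested. Of 13 other scavenger receptors and lectins, 3 were higher, Clec10a (2.65, SE 0.40), Colec12 (2.05, SE 0.33) and Mgl2 (0.79, SE 0.28). Of 10 heme and iron genes, 3 were higher, the transferrin receptor Tfrc (1.27, SE 0.31), Hmox1 (1.15, SE 0.27) and Blvrb (1.02, SE 0.28). None of 10 immediate early and stress genes was called in this split, with a median of −0.09.

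**Figure D3:**
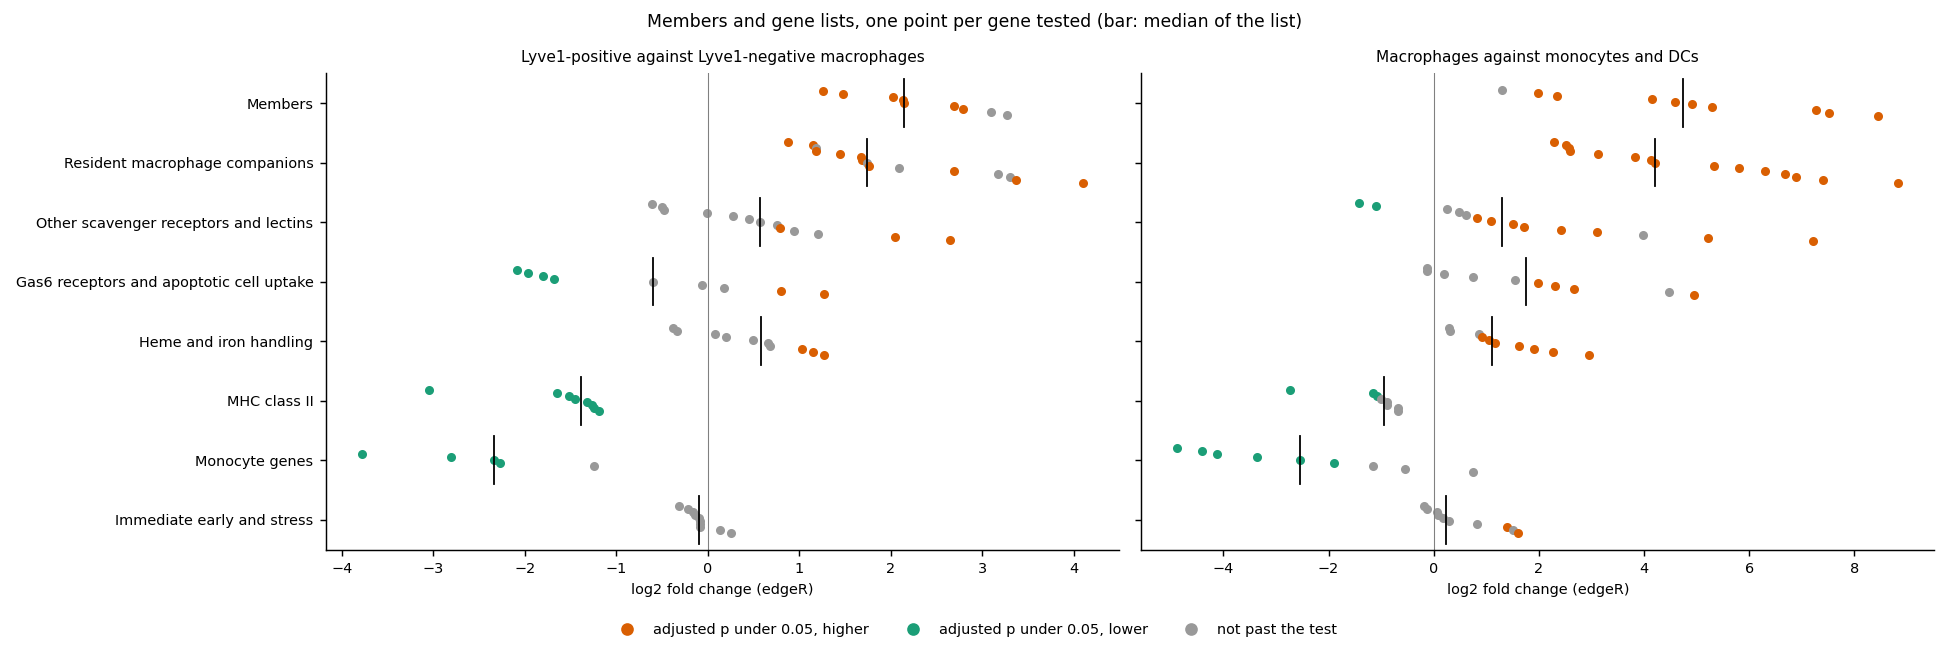
edgeR log2 fold changes of the 10 genes (9 in the left panel, where Lyve1 made the split) and of 7 gene lists in Lyve1-positive against Lyve1-negative macrophages (left) and in macrophages against monocytes and DC (right), with 1 point per gene tested, coloured by call, and a bar at the median of each list. The 8 MHC class II genes all lie below 0 in the left panel, and the 15 companion genes all lie above 0 in the right panel.

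The age comparison asked whether these genes differ between macrophages of young and old arteries. In edgeR's quasi-likelihood test of macrophage counts summed per library, 0 of 6331 genes passed in either direction (0% called), with 399 genes at an unadjusted p under 0.05 and 7 called by DESeq2 (0.0316% of genes higher and 0.0790% lower), none of them among the 10. All adjusted p of the 10 genes were 0.74 or more. The largest estimates were those of Gas6, with a log2 fold change of 3.1 (SE 1.29, unadjusted p = 0.044), F13a1 with 2.52 (SE 1.01, unadjusted p = 0.032), Folr2 with 1.80 (SE 0.84), Mrc1 with 1.53 (SE 0.76) and Timd4 with −1.41 (SE 0.59, unadjusted p = 0.035). Estimates were 1.12 (SE 0.69) for Cd163, 0.94 (SE 0.81) for Stab1, 0.92 (SE 0.95) for Lyve1, 0.89 (SE 0.53) for Cbr2 and −0.02 (SE 0.59) for Fcna. The median over the 10 was 1.03, against 0.11 over all genes. Single libraries weighed heavily on these estimates. Without the young male Folr2 was 4.68, Lyve1 3.11, Stab1 3.14 and Cd163 1.78, and without the young female they were 1.07, 0.18, 0.25 and 0.77. The first of these fits has the young female alone as its young group, in which Folr2, Lyve1 and Stab1 had few UMIs. Without the 27-month library Lyve1 was 0.45. Without both the 27- and the 28-month library F13a1 was 0.94, Mrc1 0.50 and Lyve1 −0.05, and Gas6 was not among the genes tested.

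Groups did not overlap for 2 genes. Timd4 was lower in every old library (73.9 to 239 CPM) than in either young library (271 and 601 CPM), as were 6.65% of the 6331 genes. Cbr2 was higher in every old library (333 to 779.9 CPM) than in either young library (207 and 319.8 CPM), as were 11.8% of genes, with the young male (319.8 CPM) and the 28-month library (333 CPM) close to each other. Neither pattern held under every definition of a macrophage. Without likely doublets, Cbr2 at 24 months was 132 CPM and in the young male 326 CPM, and with at least 5 C1q UMIs these were 296 and 324 CPM, so that the groups overlapped. Timd4 overlapped with at least 5 C1q UMIs, at 283 CPM at 24 months and 277 CPM in the young male, and with a filter of 1000 UMIs and 500 genes, at 257 and 249 CPM. For the other 8 genes the 24-month library lay within or below the young values.

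**Figure D4:**
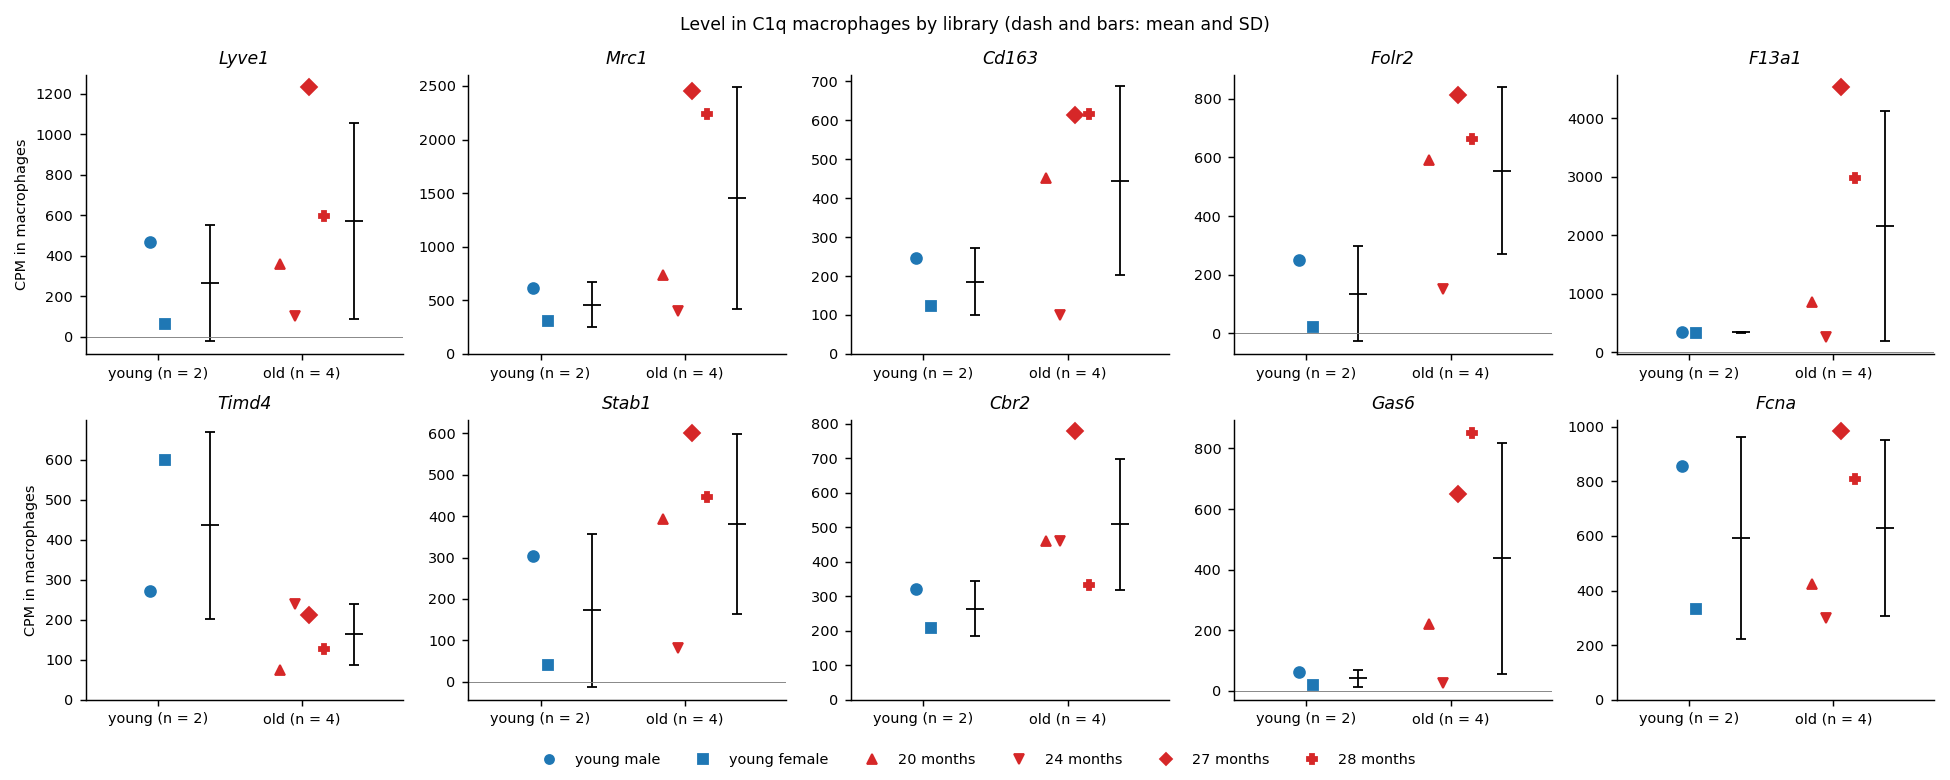
CPM of each gene in macrophages by library, young (n = 2) and old (n = 4), with a dash and bars for the mean and SD of each group. All old libraries lie below both young ones for Timd4 and above them for Cbr2, and F13a1, Mrc1 and Gas6 are highest at 27 and 28 months.

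The direction of most estimates turned with the library set. With the set that shares barcodes as a covariate, 2 of the 10 genes had a positive estimate, against 8 without it, and the median was −0.72. Lyve1 went to −1.28, Stab1 to −1.03, Cd163 to −0.80, Gas6 to −0.76, F13a1 to −0.27 and Mrc1 to −0.04. Timd4 stayed negative with the covariate (−0.67) and when each library was left out in turn (−1.90 to −0.74), and was called in none of these fits. Leaving out the barcodes that libraries share again called 0 genes and left the estimates of Timd4 at −1.43, Cbr2 at 0.94 and F13a1 at 2.41.

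Other measures moved with age or library in the same macrophages. The immediate early and stress genes summed to 13811 to 14239 CPM in young and 2306 to 10935 CPM in old macrophages, with no overlap, although 0 of these 10 genes was called. Endothelial markers summed to 82.9 to 129.5 CPM in young and 305 to 693 CPM in old macrophages. Smooth muscle markers were 36.4 and 41.5 CPM in the young libraries and 86.2, 16.5, 5317 and 1632 CPM at 20, 24, 27 and 28 months, and fibroblast markers were 81.0 and 145 CPM in young and 148 to 1865 CPM in old macrophages. The monocyte genes summed to 3437 and 7006 CPM in young and 353 to 4801 CPM in old macrophages. The part of any of these in the levels of the 10 genes was not tested, beyond leaving out likely doublets, after which 0 genes were called. The companion, scavenger, GAS6, heme and iron, MHC class II and monocyte lists had 0 genes called in either direction, with medians of 0.92, −0.20, 0.15, 0.19, 0.60 and −0.06 against 0.11 over all genes.

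Shares of positive cells were compared at equal depth, because a deeper cell is more likely to show a UMI. At 500 UMIs per cell, Timd4 was found in 14.0% of macrophages of the young male, 23.4% of the young female, 2.22% at 20 months, 9.38% at 24 months, 11.8% at 27 months and 7.04% at 28 months. It was lower in every old library, as were 7.14% of 6330 genes, with a mean of 7.60% ± 4.07 (SD, n = 4) in old and 18.7% ± 6.62 (n = 2) in young. The exact permutation test over libraries, two-sided, gave p = 0.133, the smallest that 2 against 4 libraries allow (0.667 adjusted over the 10 shares tested). Unthinned, the groups overlapped and the difference was −1.30 percentage points. At 1000 UMIs per cell, and with at least 5 C1q UMIs, they overlapped too.

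The other 9 shares overlapped between groups, whereas 9.51% of genes had a share higher in every old library. Lyve1 was found in 14.9% of the macrophages of the young male, 0 of 47 in the young female (a limit of 3 cells, or 6.38%, for cells with a UMI at this depth, and 3 of 47 had one unthinned), 11.1% at 20 months, 3.75% at 24 months, 43.6% at 27 months and 19.6% at 28 months. F13a1 was found in 15.3%, 12.8%, 30.0%, 14.4%, 74.0% and 56.0% in the order young male, young female, 20, 24, 27 and 28 months, and Mrc1 in 22.1%, 8.51%, 21.1%, 17.5%, 63.7% and 52.7%. Gas6 was found in 3.83%, 2.13%, 8.89%, 2.50%, 30.8% and 32.2%. The young female and 24-month libraries were low in each of these. B cells, which should lack these genes, held a UMI of any 1 of them in at most 3.12% of cells at the same 500 UMIs.

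**Figure D5:**
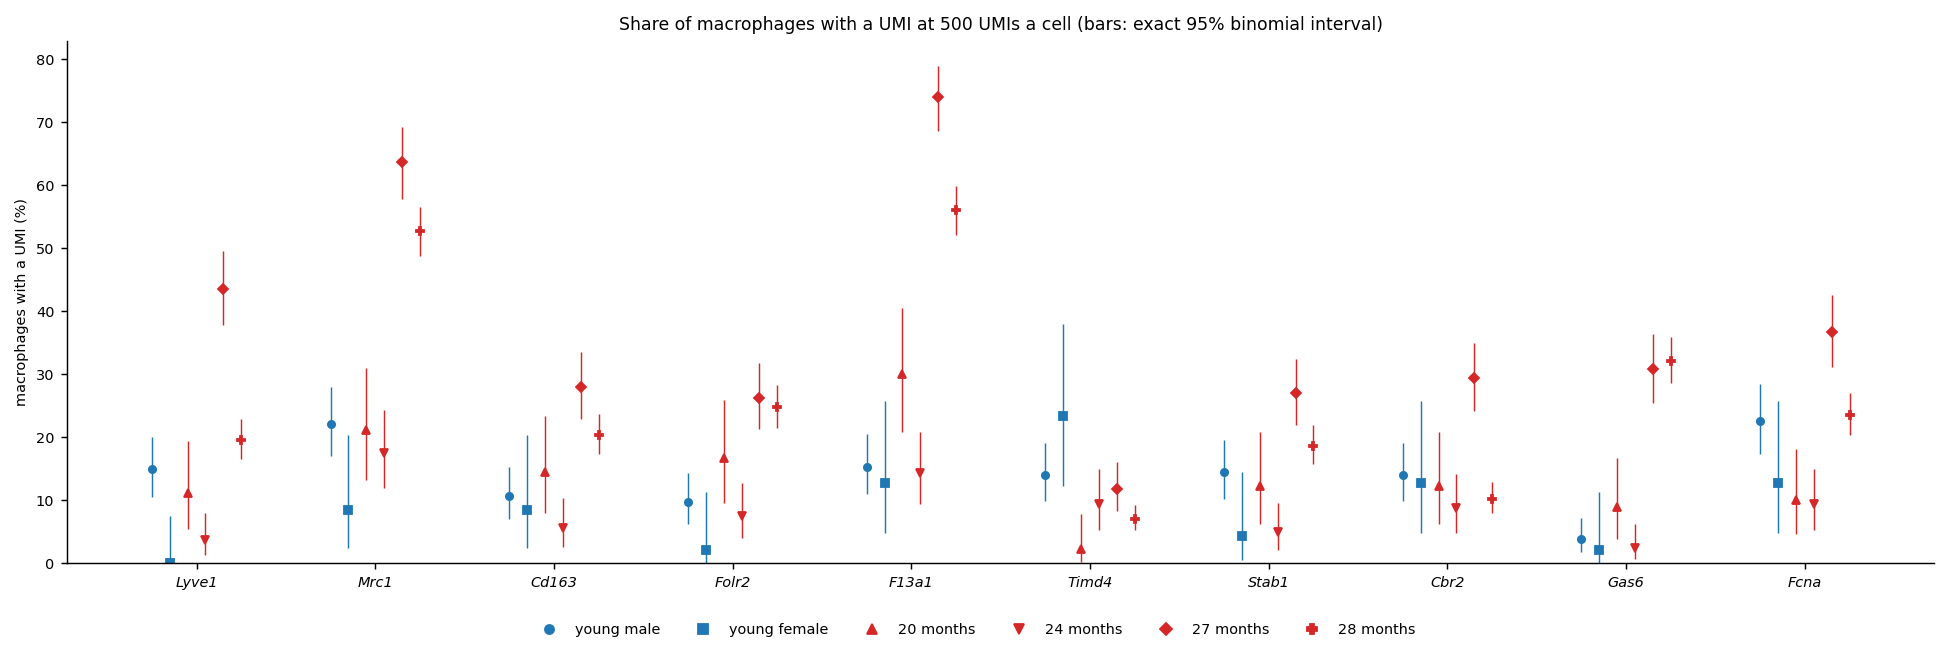
Percent of macrophages with a UMI of each gene after thinning to 500 UMIs a cell, with 1 point per library and exact 95% binomial intervals, which cover counting error only. The 27- and 28-month libraries stand highest for Mrc1, F13a1 and Gas6, and the young libraries stand highest for Timd4.

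Outside macrophages, age was tested where a gene was expressed widely enough. The fits of fibroblasts, smooth muscle cells, endothelial cells and airway epithelial cells called 0 genes each (0%), with 448, 543, 308 and 440 at an unadjusted p under 0.05 and 13, 5, 1 and 3 called by DESeq2. Gas6 had log2 fold changes of 0.83 (SE 0.59) in fibroblasts, 0.94 (SE 0.66) in smooth muscle cells and 0.68 (SE 0.55) in endothelial cells. Lyve1 was −0.84 (SE 0.53) and Stab1 0.11 (SE 0.47) in endothelial cells, and Cbr2 was −0.60 (SE 0.45) in airway cells. Each of these estimates lay within 2 standard errors of 0. The 24-month library held 2 smooth muscle cells and did not enter that fit, so that age and library set could not be told apart in smooth muscle cells. Monocytes and DC could not be fitted, since the young female had 5 such cells.

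Across the 54 profiles, the genes most like each of the 10 in level were listed as a description, by Pearson's r of log2(CPM + 10) over 7819 genes. The profiles share libraries, depth and free RNA and are not independent. Lyve1 and Stab1 were each other's closest match (r = 0.953), followed for both by Cd93 (0.882 with Stab1). Fcna was closest to Cd209f (0.959) and Ms4a7 (0.924), and Folr2 to Ms4a7 (0.929) and Fcna (0.882). Cd163 was closest to Mrc1 (0.922) and C5ar1 (0.915), F13a1 to Mrc1 (0.923) and Tbxas1 (0.885), Timd4 to Cd163 (0.853) and Aif1 (0.849), and Mrc1 to Ccl9 (0.943) and Clec10a (0.940). Gas6 was closest to Npr1 (0.877) and Sulf1 (0.875), and Cbr2 to Gpx2 (0.854) and Reg3g (0.845), none of which is among the 10. By this measure the 10 genes fell into a macrophage block (Mrc1, Cd163, Folr2, F13a1, Timd4 and Fcna, with r from 0.579 to 0.923 among them), the pair of Lyve1 and Stab1, and Gas6 and Cbr2 on their own, whose r with the macrophage block lay between −0.196 and 0.289.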

How the data were processed

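Droplet single-cell RNA was measured in 6 libraries of proximal pulmonary artery, 1 mouse each. The authors deposited unfiltered tables of UMI counts per gene and barcode, not normalised, and name STARsolo, cutadapt and GRCm38.p6 in their processing notes. Versions are not given in the sources used here. Genes were taken by the symbols of the tables, and no coordinate of a gene was taken from them. Promoter sequences and starts are those of RefSeq on GRCm38.p6.

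Barcodes that reached 500 UMIs and 300 genes without passing 20% mitochondrial counts were kept, from 935 to 4067 a library. Macrophages held at least 2 UMIs of C1qa, C1qb and C1qc. Remaining barcodes joined the class of which they held at least 2 markers of a list of 10 and more than of any other class, with ties unassigned, and endothelial barcodes with at least 2 of 6 lymphatic markers were lymphatic endothelial. Doublets were not called. Macrophages with at least 3 markers of another class, other than monocytes and DC, were left out in an alternative. Because these classes are rebuilt from markers, they may differ from those of the study.

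Counts were summed per library and class with at least 10 cells, since cells are not replicates, and tested with edgeR 4.0.16 (glmQLFit, robust, glmQLFTest) with TMM scaling over genes detected in more than 5% of the cells of 3 or more libraries (or library and class profiles), and Benjamini-Hochberg adjustment over all genes tested. Library was a block in the class and Lyve1 comparisons. Fold changes are log2 and depend on edgeR's prior count where a class is near 0. DESeq2 1.42.0, other filters, gates, scalings and splits, thinning, and leaving out each library were alternatives. Alternatives chosen after seeing the data were leaving out shared barcodes or the 27- and 28-month libraries, the library set as a covariate outside macrophages, mean macrophage levels under other gates, and endothelial cells without lymphatic markers. Shares of positive macrophages were compared after drawing 500 UMIs from each cell, by an exact permutation test (scipy 1.17.1), with exact Clopper-Pearson intervals of 95%. Intervals and limits of 3 counts cover counting error only. The scripts were tested on simulated counts. The group labels name separate mice, so p-values of the age comparisons measure the spread between mice and their libraries together. In the class and Lyve1 comparisons library was a block. The p-values of the Lyve1 comparison measure how the difference varies between libraries. Those of the class comparisons rest on a single spread shared by all 54 profiles and classes, not on that of the named difference alone. Neither measures the spread of levels between mice.

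The 10 genes were named in every comparison. List genes were named by the largest fold among those called, except 1 gene that is not reported here, and 2 genes most like each of the 10 were named among genes with a mean of at least 20 CPM. The 10 genes and the lists were chosen with earlier results of these data known. Prox1, Mmrn1, Xist, Ddx3y, Uty, Eif2s3y and Kdm5d were named as checks.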

Additional observations from a re-analysis of the deposited data

Results flagged for a closer look

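Of 49 groups of 4 old libraries tested for a library far from the other 3, 5 held one, and chance gives about 1 in 20. Folr2 in monocytes and DC was 119.67 CPM at 24 months, against 0 to 7.02 CPM in the other old libraries. F13a1 in monocytes and DC was 505.3 CPM at 28 months, against 209.8 to 225 CPM. Lyve1 in endothelial cells was 512.02 CPM at 24 months, against 216 to 264 CPM. F13a1 in T and NK cells was 54.99 CPM at 28 months, against 0 to 7.63 CPM. The share of macrophages with a Cbr2 UMI at 500 UMIs was 29.412% at 27 months, against 8.75% to 12.2%. Lyve1 was flagged for a direction with age that differed between classes by its values alone. In smooth muscle cells it was detected in each of the 3 old libraries with enough cells (mean 11.355 CPM) and in neither young library (0 UMIs) and it was lower in every old than in every young library in fibroblasts (0 to 4.92 CPM in old, 5.62 CPM or more in young). The young smooth muscle profiles held 20607 and 31209 UMIs from 21 and 39 cells, too few to show a level such as that of the old libraries, so that no direction can be read there. The young fibroblast profiles held 178024 and 28564 UMIs. At 500 UMIs a cell, 1 of 163 fibroblasts of the young male and 1 of 40 of the young female held a Lyve1 UMI. The fibroblast values therefore rest on very few UMIs, and no direction can be read from them either. The difference was not tested, and all of these levels are below or near that of Lyve1 in RNA outside cells (up to 74.8 CPM).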

How the results depend on the processing

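Young and old libraries came from different mice, so the age comparisons were not paired, whereas the class and Lyve1 comparisons were made within libraries. Age calls, 0 in every class, were 7 in macrophages, 13 in fibroblasts, 5 in smooth muscle cells, 1 in endothelial cells and 3 in airway cells with DESeq2, and 12 in macrophages without a gene filter. Leaving out 1 library gave 0 to 1 in fibroblasts, 0 to 68 in smooth muscle cells (68 without 20 months, 3 without 27 months, 2 without 28 months) and 0 to 1 in endothelial cells. In macrophages, Lyve1 went to −1.28, Mrc1 to −0.043, Cd163 to −0.80, F13a1 to −0.27, Stab1 to −1.03 and Gas6 to −0.76 with the library set as covariate, and Lyve1 to −0.048 without the deepest 2 libraries. Fcna turned positive at 1000 UMIs (0.041), with C1q at least 5 (0.25), without likely doublets (0.20), composition scaling (0.095) or gene filter (0.21) and when thinned (0.0050), and ranged from −0.52 to 0.86 when libraries were left out (0.16 without 24 months). With the covariate, Gas6 was −0.13 in fibroblasts and −0.41 in endothelial cells, where Lyve1 was 0.017 and Stab1 −0.28. Leaving out libraries, F13a1 in smooth muscle cells ran from −0.70 to 0.61 (−0.055 with DESeq2) and Cbr2 there from −0.26 to 1.35 (−0.042 without 20 months), Stab1 in endothelial cells from −0.085 to 0.33 and Gas6 in airway cells from −0.16 to 0.22 (0.093 without the young male, 0.185 without 24 months).

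Against other classes, leaving out libraries gave 722 to 2026 genes higher and 243 to 501 lower against monocytes and DC, 1726 to 2356 higher against fibroblasts, 1565 to 2851 lower against smooth muscle, 940 to 1661 lower against B cells, 1794 to 2993 higher and 553 to 987 lower against T and NK cells, and 838 to 1753 higher and 808 to 1397 lower against lymphatic endothelium. The lowest counts came without 27 or 28 months (1039 higher than in monocytes and DC without 27 months, and 257 lower there and 568 lower than in T and NK cells without 28 months). Without composition scaling 1677 were lower than in T and NK cells, and with DESeq2 1215 were higher than in lymphatic endothelium. Gas6 ran from −0.14 to 0.35 against fibroblasts, −0.10 to 0.41 against smooth muscle (−0.057 without 27 months), −0.26 to 0.36 against endothelium and −0.38 to 0.38 against lymphatic endothelium (−0.0842 without scaling, −0.13 with DESeq2, −0.20 without 28 months), Lyve1 from −0.13 to 0.74 against endothelium, and Stab1 there was 0.00485 with C1q at least 5. The Lyve1 split gave 20 genes higher and 64 lower when thinned, with fewer genes tested, 286 and 485 without likely doublets, 185 and 330 with DESeq2, 663 lower with C1q at least 5, and 109 to 538 higher and 239 to 1114 lower without 1 library (122 and 259 without 27 months). Genes whose shares did not overlap, 1 of 10, were 0 unthinned, 0 at 1000 UMIs and 1 to 7 without 1 library. The 7 came without the young male, which leaves the young female with 47 macrophages as the only young library. With at least 5 C1q UMIs the gene that did not overlap was Folr2 instead of Timd4. The share of all genes without overlap was not computed in these settings. The old minus young share of Cbr2 ran from −2.99 to 3.89 points and that of Fcna from −3.34 to 7.14 (−2.64 without the young female), and Fcna was −10.7 at 1000 UMIs. The cause of these shifts was not tested. All 90 alternatives for mean macrophage levels moved by less than 1 SD, but this SD over libraries was wide for some genes. It was 1790 CPM for F13a1 (mean 1550) and 359 CPM for Gas6 (mean 305). A shift under 1 SD therefore says little about how stable such a level was. Not run were the monocyte and DC age fits, the covariate in smooth muscle and the 1000 UMI filter in fibroblasts, smooth muscle and endothelium, for lack of cells. In smooth muscle the 24-month library held 2 cells, and without it age and library set coincided.

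With 2 young libraries of 47 and 235 macrophages, at a median of 811 and 903 UMIs a cell, counting error is large. Gas6 rests on few UMIs in both, and Folr2, Lyve1 and Stab1 rest on few in the young female. Age is tied to depth and to the library set, and the 27- and 28-month libraries hold most macrophage UMIs.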
